A study of Danio rerio with 8 samples.

Results

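The genes described are the collagens and the enzymes that modify, fold and crosslink them, measured in the liver of adult zebrafish that received oligo-fucoidan (OF), a short-chain preparation of a brown algal polysaccharide, or none. They are the genes whose symbol in the authors' annotation of the second batch names a collagen chain, a lysyl oxidase, a lysyl hydroxylase (*plod*), an alpha subunit of prolyl 4-hydroxylase (*p4ha*) or the collagen chaperone *serpinh1*. The rule gave 69 genes out of 22653 with a single symbol, measured by 81 of the 59300 transcript clusters tested. A transcript cluster is the set of array probes that stands for a gene or for a part of one. Where a gene had several clusters, the one with the highest mean signal was used. Of the 69 genes, 15 encode fibrillar collagens, 10 collagens of basement membranes, 25 other collagens, 9 lysyl oxidases and 9 hydroxylases and chaperones. The remaining gene, *col4a3bpa*, matched by its name alone. It is listed as *cert1a*, a ceramide transfer protein, in RefSeq and is described apart.

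All fish were wild type, of the AB strain, and 5 months old at the start. The OF fish received 300 mg/kg by oral gavage 3 times a week for 1 month, and the controls are labelled as untreated (mock). The age on the labels of all the arrays is 6 months. From each of 2 batches, 2 control fish and 2 OF fish were measured, each on an array of its own. Thus 4 OF arrays were compared with 4 control arrays. No source used here names the sex of the fish, and the arrays were made from whole pieces of liver. In such tissue, fewer cells of a type and less RNA per cell cannot be told apart.

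Fibrillar collagens form the tensile fibers of connective tissue, whereas type IV collagen builds the sheet of the basement membrane and types VII, XV and XVIII anchor or decorate it. In the endoplasmic reticulum, prolyl 4-hydroxylases stabilise the triple helix, lysyl hydroxylases prepare lysines for crosslinks and sugars, and Serpinh1 (Hsp47) holds the helix until it leaves. Outside the cell, lysyl oxidases oxidise lysines so that the fibers become crosslinked. In the liver the main producers are the hepatic stellate cells and fibroblasts, and crosslinked collagen accumulates in fibrosis.

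The median log2 signal of an array lay between 2.11 and 2.13 in batch 1 and between 2.54 and 2.63 in batch 2, so that a level in one batch was not set against a level in the other. Arrays of the same group correlated at r = 0.929 to 0.964 across clusters. Hepatocyte markers were bright on all arrays, with a mean log2 signal of 10.95 to 12.55 over 18 genes, and their changes are given beside those of the other cell types below. The arrays differed strongly in genes outside the liver's connective tissue. The mean of 5 estrogen-responsive genes, among them vitellogenins and *esr1*, was 2.88 and 2.84 in the controls and 9.94 and 11.74 in the OF fish of batch 1. In batch 2 it was 12.56 and 12.62 in the controls, but 12.50 and 2.84 in the OF fish. Both controls of batch 1 and OF replicate 2 of batch 2 thus had low signals, and the other 5 arrays had high ones. Over 14 ovary and oocyte markers the mean was 1.90 and 2.00 in the controls and 7.21 and 5.21 in the OF fish of batch 1, against 2.88, 3.59, 3.77 and 1.97 in the same order in batch 2. These genes moved with OF in batch 1 and set OF replicate 2 of batch 2 apart, and their part in the values below was not tested.

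Most collagen genes gave little signal. The highest of the 8 log2 signals was under 4 for 46 of the 69 genes, against 44.6% of all named genes, and under 3 for 33 of them. The files used give no detection call, so these genes are described as near the array floor and not as absent. Near the floor were 12 of 15 fibrillar, 7 of 10 basement membrane and 20 of 25 other collagens, but 5 of 9 lysyl oxidases and 2 of 9 hydroxylases and chaperones. The latter 2 were the chaperone *serpinh1b* (1.79 to 1.97) and the hydroxylase *p4ha1a* (1.47 to 2.46).

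**Figure D1:**
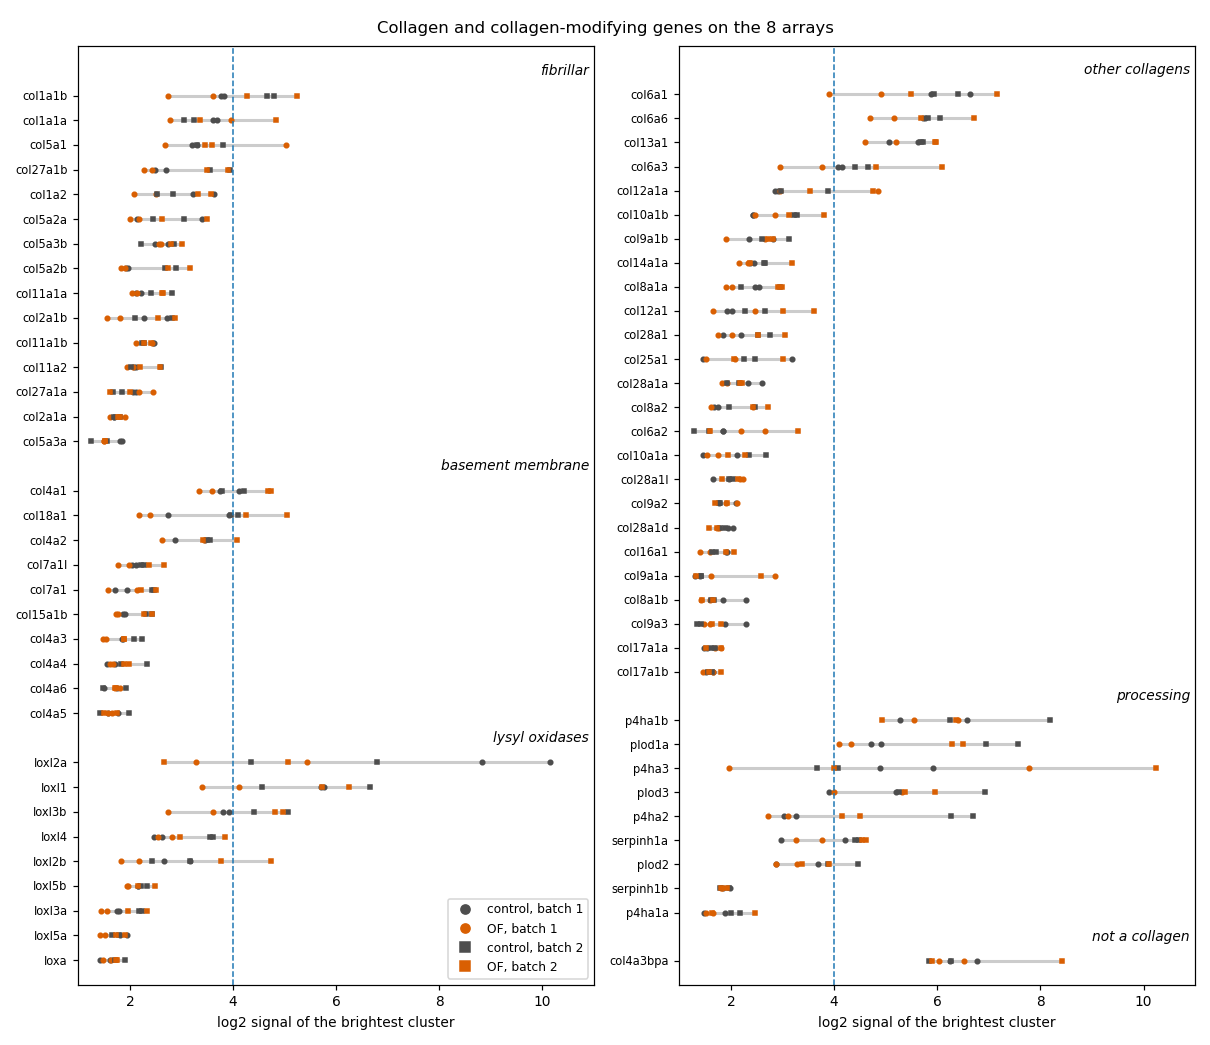
Log2 signal of the brightest cluster of each of the 69 genes (x axis) on the 8 arrays, by group; grey bars run from the lowest to the highest array, and the dashed line marks a log2 signal of 4. For 46 genes all 8 arrays lie left of the line, and *p4ha3* and *loxl2a* spread over the widest ranges, 8.28 and 7.49.

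With OF, 4 of the 69 genes were lower in batch 1 at the methods' limits, which ask for more than 2-fold and an unadjusted p below 0.05 in limma, and 0 were higher. They were the crosslinking enzymes *loxl2a* and *loxl1* and the collagen chains *col6a1* and *col1a2*. By the same limits 3.47% of all clusters and 4.58% of all named genes were lower in batch 1, and 3.26% and 4.89% were higher. In batch 2, 1 gene was higher, *loxl2b*, and 1 was lower, *p4ha2*, against 2.55% of clusters and 3.21% of named genes higher and 3.12% and 4.94% lower. No gene passed in both batches. In the fit of the 8 arrays together, in which batch was a term, 4 genes were lower at an unadjusted p under 0.05 (*loxl2a*, *plod1a*, *p4ha2* and *col4a3*) and 0 higher, against 2.42% of clusters and 2.66% of named genes lower and 2.06% and 2.73% higher.

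None of the 69 genes passed an adjusted p under 0.05 in limma in these fits. The lowest adjusted p was 0.955 over both batches and 0.225 in batch 1, where 0.0% of all clusters and of all named genes passed. It was 0.217 in batch 2, where 0.0101% of all clusters and 0.00883% of named genes passed. The value in batch 1 depended on the clusters tested, since with only the 23293 clusters of a mean over 3, 262 clusters were higher and 93 lower at an adjusted p under 0.05, among them 1 of the 69 genes, *loxl2a* (adjusted p = 0.0497). The counts also depended on single fish. Without OF replicate 2 of batch 1, 9 genes were lower and 2 higher in that batch, but the shares of all clusters were also larger, at 5.1% and 7.49%. Without its OF replicate 1, 2 genes were higher, against 3.58% of clusters. In batch 2, 8 genes were higher without OF replicate 1, against 5.9% of clusters, and 3 and 2 were lower without control replicate 1 or 2, against 3.47% and 3.58%. In what follows a gene is said to pass at an unadjusted p under 0.05 in limma, adjusted p-values are over all clusters, and a change is the mean log2 signal of the OF fish minus that of the controls, with its standard error (SE).

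Among the lysyl oxidases, *loxl2a* had the largest change in batch 1. It encodes one of the zebrafish copies of lysyl oxidase-like 2, which crosslinks collagen and is known for its increase in liver fibrosis. The study picked *loxl2a* as lower from these same arrays, in a comparison of the 2 batches with the limits on fold and p given above. Its values here are therefore not independent evidence, and in the fits made here it met both limits in batch 1 only. The paper also reported it as lower by qPCR, in the samples of the arrays and in all the OF and control fish. In batch 1 its log2 signal was 10.15 and 8.83 in the controls, but 3.28 and 5.44 in the OF fish. The batch 2 signals were 4.35 and 6.78 in the controls, and 2.66 and 5.07 in the OF fish. Both OF fish of batch 1 were therefore below both controls, whereas the groups overlapped in batch 2, where the dimmer control lay between the OF fish. The mean was 35.0-fold lower in batch 1 (−5.13, SE 0.91, adjusted p = 0.251) and changed by −1.70 in batch 2, which did not pass (SE 1.17, adjusted p = 0.764). Over both batches the change was −3.42 (SE 1.04, adjusted p = 0.955), and it ran from −4.25 to −2.64 and passed when any 1 array was left out.

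A further cluster of *loxl2a* followed the first in batch 1. It gave 7.18 and 5.92 in the controls, and 2.01 and 2.80 in the OF fish. In batch 2 it gave 2.15 and 4.02 in the controls, and 2.19 and 3.22 in the OF fish, which lay between them. Its change was −4.14 in batch 1 (SE 0.55) and −0.38 in batch 2 (SE 0.74), and these changes differed at an unadjusted p under 0.05 (adjusted p = 0.2). For the brighter cluster the difference between the batches, 3.43, did not pass (adjusted p = 0.445).

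The paralogue *loxl2b* moved in opposite directions in the 2 batches. Its log2 signal in batch 1 was 2.67 and 3.17 in the controls, and 1.83 and 2.18 in the OF fish, a change of −0.91 (SE 0.27) that passed the limit on p but not that on fold. Those of batch 2 were 2.44 and 3.17 in the controls, and 4.73 and 3.77 in the OF fish, a change of 1.45 (2.73-fold higher, SE 0.45, adjusted p = 0.425). The groups did not overlap in either batch, and the difference between the changes was 2.36 (SE 0.58, adjusted p = 0.172). The call in batch 2 was lost without OF replicate 1 (0.97) or control replicate 1 (1.08) of that batch. All of its signals but 1 lay below 4.

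The elastin and collagen crosslinking enzyme gene *loxl1* gave 5.71 and 5.76 in the controls of batch 1, and 4.11 and 3.39 in the OF fish. It fell there by 1.98 (3.95-fold lower, SE 0.30, adjusted p = 0.225), and passed without any 1 of the arrays. In batch 2 its signals were 6.66 and 4.57 in the controls, and 5.72 and 6.25 in the OF fish, which lay between them (0.37, SE 0.75). The changes differed at an unadjusted p under 0.05 (adjusted p = 0.328). *loxl3b*, of the same enzyme family, gave 3.91 and 3.80 in the controls and 2.74 and 3.61 in the OF fish of batch 1 (−0.68, SE 0.35, not passed), and 4.41 to 5.06 on all arrays of batch 2.

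Of the 9 lysyl oxidases, 7 had both OF arrays below both controls in batch 1, and 1, *loxl2b*, had both OF arrays above both controls in batch 2. In batch 1, 24.2% of all named genes and 23.9% of all clusters had both OF arrays below, and in batch 2, 22.2% and 21.0% had both above. The group's median change was −0.41 in batch 1 and 0.04 in batch 2, against −0.01 and 0.02 over all named genes. The 5 lysyl oxidases near the floor, *loxa*, *loxl3a*, *loxl4*, *loxl5a* and *loxl5b*, had signals of 1.41 to 3.85 and changes of −0.41 to 0.14 in batch 1.

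**Figure D2:**
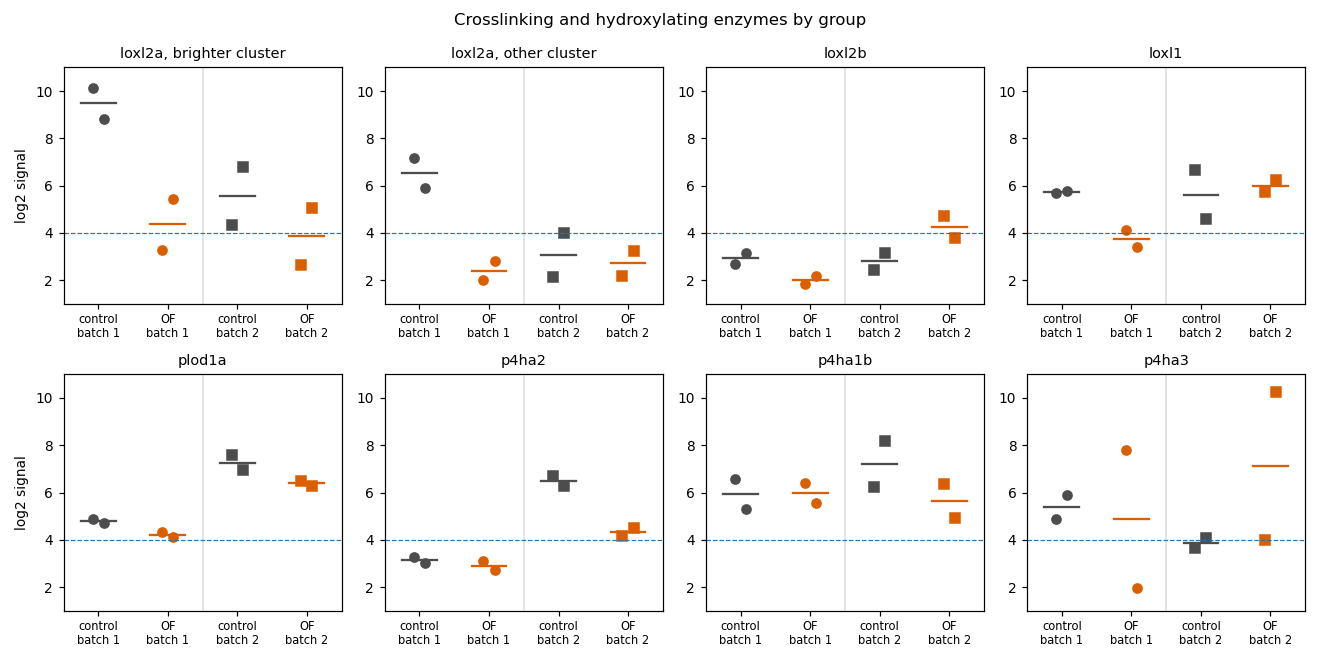
Log2 signal (y axis) of crosslinking and hydroxylating enzymes in the 4 groups; each point is 1 fish, short lines are group means, and the dashed line marks a log2 signal of 4. Both clusters of *loxl2a* lie far lower with OF in batch 1 (changes −5.13 and −4.14), *p4ha2* lies lower with OF in batch 2 (−2.15), and *plod1a* lies lower with OF in both.

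Among the hydroxylases, *plod1a* had the smallest p over both batches of all 69 genes. It encodes a lysyl hydroxylase that acts on the helical part of collagen. Its log2 signal in batch 1 was 4.90 and 4.71 in the controls, and 4.33 and 4.1 in the OF fish. The batch 2 signals were 7.57 and 6.94 in the controls, and 6.49 and 6.29 in the OF fish. Both OF fish were below both controls in each batch. The change was −0.59 in batch 1 (SE 0.20), −0.86 in batch 2 (SE 0.29) and −0.73 over both (SE 0.18, adjusted p = 0.955), a 1.66-fold difference. It passed in each of these fits and stayed below 2-fold in each batch. Over both batches it ran from −0.83 to −0.57 and passed when any 1 array was left out.

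Of the 69 genes, 3 had both OF arrays below both controls in each batch (*plod1a*, *col4a3* and *col28a1d*), against 2.58% of named genes and 2.82% of clusters. For 1 gene, *col6a2*, both OF arrays were above both controls in each batch, against 2.91% and 2.54%. All of these genes but *plod1a* were near the floor.

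With no array left out, the other lysyl hydroxylases did not pass in either batch or over both. *plod2*, the hydroxylase of the collagen ends, changed by −0.37 over both batches (SE 0.25). *plod3*, which also adds sugars to collagen, gave 5.20 and 3.90 in the controls and 5.32 and 4.0 in the OF fish of batch 1. The second batch gave 5.25 and 6.93 in the controls, and 5.38 and 5.95 in the OF fish, so that its groups overlapped in both.

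The prolyl 4-hydroxylase subunit *p4ha2* was below 4 on all arrays of batch 1, with 3.26 and 3.02 in the controls, and 3.11 and 2.71 in the OF fish. Batch 2 gave 6.69 and 6.27 in the controls, and 4.15 and 4.51 in the OF fish. It fell there by 2.15 (4.42-fold lower, SE 0.26, adjusted p = 0.217), and the call held without any 1 array. The change in batch 1 was −0.23 (SE 0.23, not passed), and the changes differed by −1.92 (SE 0.36, adjusted p = 0.135). The controls of batch 1 lay below 4, and whether this limited the fall there was not tested. The change over both batches, −1.19 (SE 0.40), no longer passed when any 1 of the 4 arrays of batch 2 was left out. *p4ha2* was the only 1 of the 69 genes whose change in batch 2 was below that in batch 1 at an unadjusted p under 0.05, against 6.61% of clusters and 10.1% of named genes. Its relative *p4ha1b* gave 6.58 and 5.29 in the controls and 6.40 and 5.55 in the OF fish of batch 1. In batch 2 it gave 6.24 and 8.19 in the controls, and 6.36 and 4.94 in the OF fish (change over both −0.76, SE 0.63, not passed).

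No gene of the 69 had a wider range than *p4ha3*, a further prolyl 4-hydroxylase subunit. Its signals in batch 1 were 4.88 and 5.92 in the controls, and 7.79 and 1.97 in the OF fish. In batch 2 they were 3.66 and 4.07 in the controls, and 4.0 and 10.24 in the OF fish. The OF fish of each batch thus differed from each other by more than any control did from another. The change over both batches was 1.36 with an SE of 1.78, and it was −0.26 without OF replicate 2 of batch 2 and 2.91 without OF replicate 2 of batch 1. The chaperone *serpinh1a* gave 2.97 to 4.2 in batch 1 and 4.41 to 4.62 in batch 2, with a change of 0.03 (SE 0.28).

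The fibrillar collagens were low and none passed over both batches. Type I collagen, the main fiber of scars, has 3 chain genes in zebrafish. *col1a2* gave 3.63 and 3.22 in the controls and 2.08 and 2.50 in the OF fish of batch 1. The second batch gave 2.53 and 2.84 in the controls, and 3.32 and 3.57 in the OF fish. It was 2.2-fold lower in batch 1 (−1.14, SE 0.26, adjusted p = 0.311) and 1.69-fold higher in batch 2 (0.76, SE 0.23, adjusted p = 0.421), where it passed the limit on p but not that on fold. The difference between the changes was 1.90 (SE 0.36, adjusted p = 0.135), and it passed with any 1 array left out. The call in batch 1 was lost without control replicate 1 (−0.93) or OF replicate 1 (−0.92) of that batch.

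The alpha 1 chains, which join that of *col1a2* in a helix, did not pass in either batch. *col1a1a* gave 3.62 and 3.70 in the controls and 2.79 and 3.97 in the OF fish of batch 1, and 3.06 and 3.24 in the controls and 3.36 and 4.84 in the OF fish of batch 2 (changes −0.28 and 0.95). *col1a1b* gave 3.82 and 3.76 in the controls and 2.74 and 3.62 in the OF fish of batch 1, and 4.65 and 4.80 in the controls and 4.27 and 5.24 in the OF fish of batch 2 (changes −0.61 and 0.03). In batch 1 OF replicate 1 was the lowest array for both of these genes and for *col1a2*, and in batch 2 OF replicate 2 was the highest for all 3.

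Of the 15 fibrillar genes, 12 had a lower and 3 a higher mean with OF in batch 1 (median −0.19), and 13 a higher and 2 a lower mean in batch 2 (median 0.09). Over all named genes the medians were −0.01 and 0.02. Beside *col1a2*, the cartilage collagen *col2a1b* passed the limit on p in batch 1 (−0.81, SE 0.25), with signals of 2.27 and 2.72 in the controls, and 1.55 and 1.82 in the OF fish. *col5a1*, which starts the growth of fibers, had a single high array, OF replicate 2 of batch 1 (5.03, against 2.68 to 3.81 on the others). The remaining fibrillar genes, of types V, XI and XXVII and the other copy of *col2a1*, had changes of −0.18 to 0.17 over both batches.

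**Figure D3:**
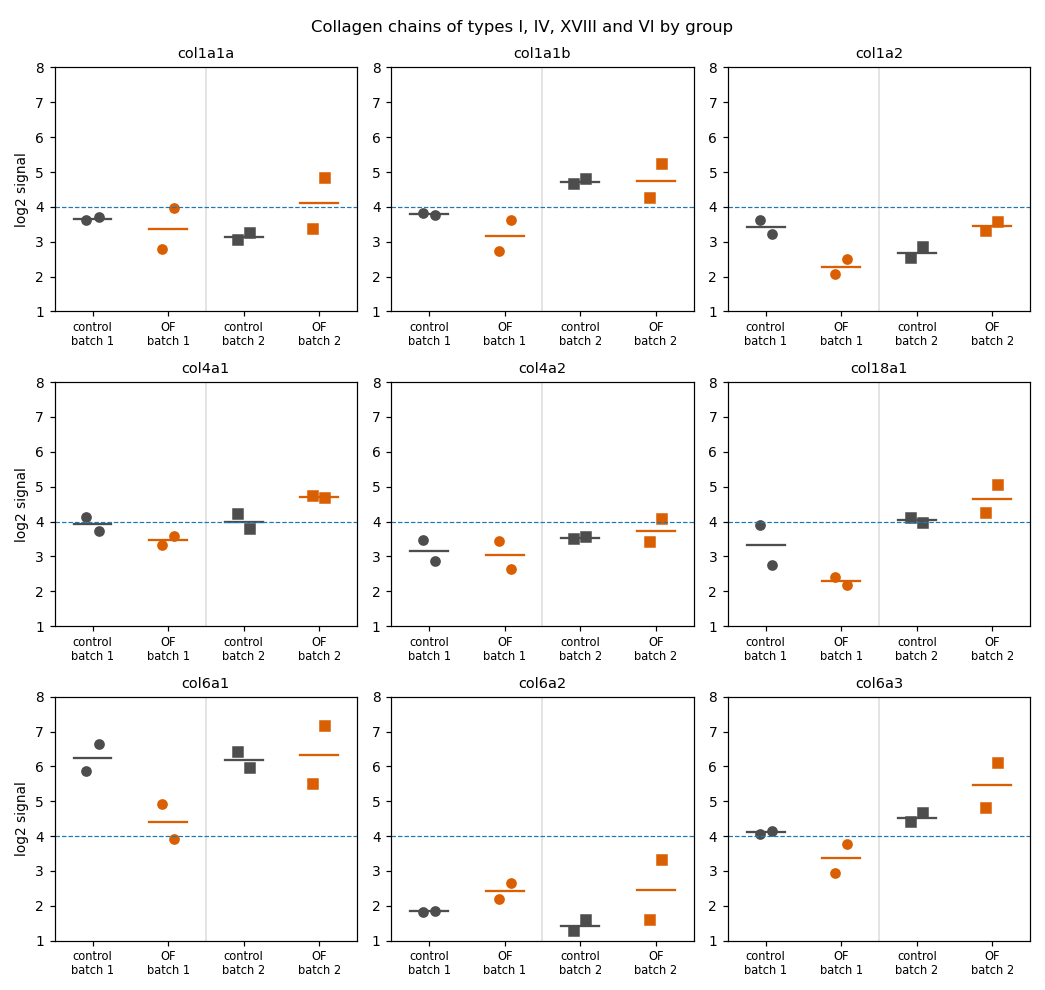
Log2 signal (y axis) of chains of collagen types I, IV, XVIII and VI in the 4 groups; each point is 1 fish, short lines are group means, and the dashed line marks a log2 signal of 4. *col1a2*, *col4a1*, *col18a1* and *col6a3* are lower with OF in batch 1 and higher in batch 2 without overlap, and *col6a2* is higher in both.

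Of the basement membrane collagens, *col4a1*, *col4a2* and *col18a1* had a signal over 4 on at least 1 array. *col4a1* and *col4a2* lie next to each other on chromosome 9, and their chains join in a helix. *col4a1* gave 4.12 and 3.74 in the controls and 3.34 and 3.59 in the OF fish of batch 1. Batch 2 gave 4.21 and 3.78 in the controls, and 4.74 and 4.68 in the OF fish. Its change was −0.47 in batch 1 (SE 0.23, not passed) and 0.71 in batch 2 (SE 0.24, passed, 1.64-fold), with a difference of 1.18 (SE 0.33, adjusted p = 0.201) that passed with any 1 array left out. *col4a2* gave 3.46 and 2.87 in the controls and 3.44 and 2.63 in the OF fish of batch 1. In batch 2 it gave 3.49 and 3.54 in the controls, and 3.41 and 4.07 in the OF fish. Its groups overlapped in both batches (change 0.04, SE 0.26).

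*col18a1*, whose protein releases the angiogenesis inhibitor endostatin, gave 3.91 and 2.75 in the controls and 2.40 and 2.17 in the OF fish of batch 1. The second batch gave 4.1 and 3.96 in the controls, and 4.24 and 5.04 in the OF fish. Its changes were −1.05 (SE 0.45) and 0.61 (SE 0.33), neither of which passed, and their difference, 1.66, passed (adjusted p = 0.302). A cluster on chromosome 6 carries the same symbol and stayed between 1.68 and 1.95 on all arrays, whereas the brighter one lies on chromosome 9.

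The kidney and eye chain *col4a3* was near the floor but had the smallest SE of the 69 genes over both batches. Its signals in batch 1 were 1.84 and 1.86 in the controls, and 1.48 and 1.54 in the OF fish. In batch 2 they were 2.07 and 2.23 in the controls, and 1.89 and 1.88 in the OF fish. The change was −0.31 (1.24-fold, SE 0.11, adjusted p = 0.955). It no longer passed when any 1 of 4 arrays was left out, namely both controls and OF replicate 1 of batch 1 and control replicate 2 of batch 2. Its neighbour on chromosome 15, *col4a4*, changed by −0.07 (SE 0.14). The other basement membrane genes, *col4a5*, *col4a6*, *col7a1*, *col7a1l* and *col15a1b*, changed by −0.08 to 0.07 over both batches.

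Of the 25 other collagens, *col6a1*, *col6a3*, *col6a6*, *col13a1* and *col12a1a* had a signal over 4. Type VI collagen forms beaded filaments around cells. *col6a1* gave 5.88 and 6.63 in the controls and 4.91 and 3.90 in the OF fish of batch 1. Batch 2 gave 6.40 and 5.94 in the controls, and 5.49 and 7.15 in the OF fish. It was 3.59-fold lower in batch 1 (−1.85, SE 0.48, adjusted p = 0.346), a call lost without control replicate 2 of that batch (−1.47), and in batch 2 the OF fish lay on either side of the controls (0.15, SE 0.61).

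*col6a3* gave 4.07 and 4.15 in the controls and 2.95 and 3.77 in the OF fish of batch 1. In batch 2 it gave 4.40 and 4.66 in the controls, and 4.81 and 6.09 in the OF fish. Its changes of −0.75 (SE 0.33) and 0.93 (SE 0.48) did not pass, but their difference, 1.68, did (adjusted p = 0.32). *col6a6* gave 5.75 and 5.73 in the controls and 4.70 and 5.17 in the OF fish of batch 1, where it passed the limit on p (−0.81, SE 0.23). The second batch gave 6.05 and 5.82 in the controls, and 5.68 and 6.72 in the OF fish, on either side of them.

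*col6a2*, which lies on chromosome 11 with *col6a1* and whose chain joins the same protein, was higher in every OF fish than in both controls of its batch. Its signals in batch 1 were 1.84 and 1.85 in the controls, and 2.19 and 2.66 in the OF fish. In batch 2 they were 1.28 and 1.58 in the controls, and 1.59 and 3.31 in the OF fish. The change was 0.80 (SE 0.36, adjusted p = 0.955) and did not pass, and all of its signals were under 4. The transmembrane collagen gene *col13a1* gave 4.59 to 5.62 in batch 1 and 5.69 to 5.97 in batch 2, with a change of −0.09 (SE 0.23).

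After *col6a2*, the 5 genes with the smallest p for a higher signal over both batches were *col9a1a*, *col12a1a*, *col12a1*, *col8a2* and *col28a1l*, and none passed. *col12a1a*, a collagen bound to the surface of fibers, gave 2.86 and 2.91 in the controls and 2.95 and 4.85 in the OF fish of batch 1, and 2.98 and 3.88 in the controls and 3.53 and 4.75 in the OF fish of batch 2 (0.86, SE 0.47). OF replicate 2 was the highest of its batch in each case. *col12a1* gave 2.03 and 1.92 in the controls and 1.65 and 2.47 in the OF fish of batch 1, and 2.28 and 2.66 in the controls and 3.00 and 3.61 in the OF fish of batch 2, where it passed the limit on p (0.84, SE 0.31). *col9a1a*, a cartilage collagen, was between 1.29 and 1.61 on 6 arrays and reached 2.85 in OF replicate 1 of batch 1 and 2.58 in OF replicate 2 of batch 2. *col8a2* and *col28a1l* changed by 0.33 and 0.19. For a lower signal the smallest p after the genes above were those of *col8a1b* (−0.33, SE 0.17), a short chain collagen of vessels, and *col28a1d* (−0.21, SE 0.11), both below 2.31 on all arrays and neither passed.

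Over the 69 genes, more means were lower with OF in batch 1 and more were higher in batch 2. In batch 1, 50 had a lower mean with OF, and in batch 2, 46 had a higher one, whereas 51.4% and 47.5% of all named genes were lower in the respective batch. Most of these genes were near the floor. Of the 23 genes that were not, 19 had a lower mean in batch 1 and 16 a higher one in batch 2. Among all named genes above the floor, 49.8% were lower in batch 1 and 49.6% in batch 2. The median change of the 69 genes was −0.20 in batch 1 and 0.10 in batch 2. The groups of genes were not alike in this. Of the 25 other collagens, 16 had a lower mean in batch 1 and 20 a higher one in batch 2, whereas of the 10 basement membrane genes 7 had a lower mean in batch 1 and batch 2 split them 5 to 5. Of the 9 hydroxylases and chaperones, 7 had a lower mean in batch 1 and 7 a lower one in batch 2 as well (medians −0.10 and −0.43). Both OF arrays were below both controls for 32 of the 69 genes in batch 1 and above both controls for 15 in batch 2, against the 24.2% and 22.2% of named genes given above. For 10 genes both held, and for 0 the reverse, against 7.59% and 6.36% of named genes and 6.62% and 4.53% of clusters.

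The change in batch 2 was above that in batch 1 at an unadjusted p under 0.05 for 11 genes, against 7.69% of clusters and 9.58% of named genes. These were *col1a2*, *col2a1b*, *col8a1a*, *col9a3*, *col16a1* and *col28a1a*, all near the floor, and *col4a1*, *col6a3*, *col18a1*, *loxl1* and *loxl2b*. None of the 69 passed an adjusted p under 0.05 in this test (lowest 0.135), whereas 0.00506% of clusters and 0.00441% of named genes did. With the gene that went the other way, *p4ha2*, they make 12 genes, of which 4 (*col1a2*, *col4a1*, *loxl2b* and *p4ha2*) passed without any 1 of the 8 arrays. Without OF replicate 2 of batch 2 the count of 11 was 3, against 6.65% of clusters, and without OF replicate 1 of batch 2 it was 14, against 9.52%. It was 5 without control replicate 1, 7 without control replicate 2 and 6 without OF replicate 1 of batch 1, against 7.68%, 6.34% and 5.55% of clusters, and 6 without control replicate 2 of batch 2, against 6.08%.

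**Figure D4:**
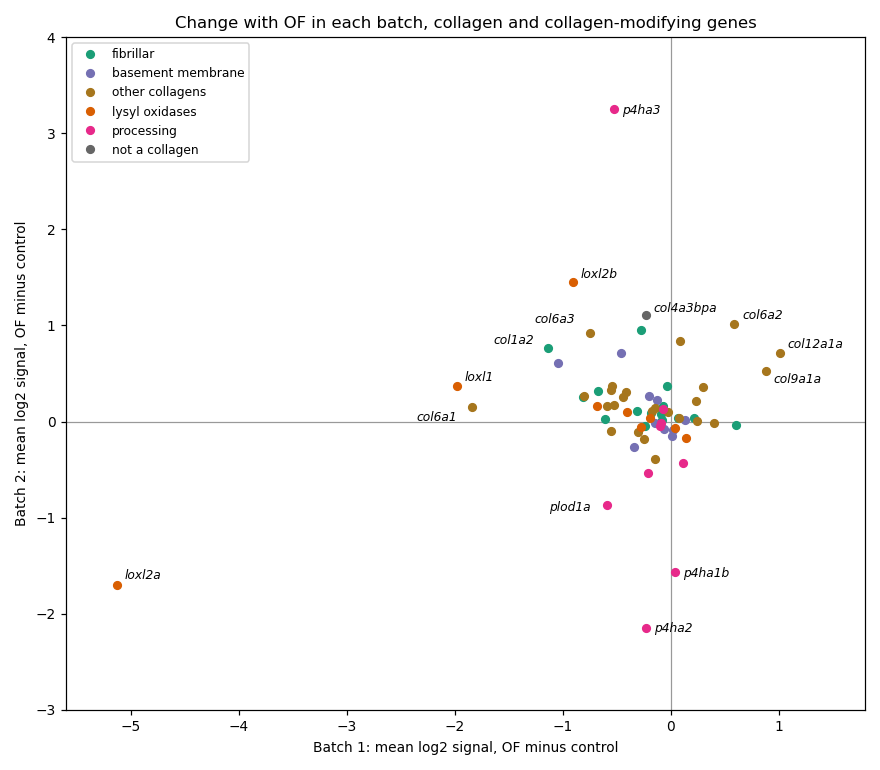
Change with OF in batch 1 (x axis) and in batch 2 (y axis) for each of the 69 genes, in mean log2 signal with OF minus control; colours give the group of genes. There are 50 points left of 0 on the x axis and 46 above 0 on the y axis, and *loxl2a*, *loxl1*, *col6a1*, *p4ha2* and *p4ha3* lie far out. Genes near the array floor are included.

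Some arrays were the extreme of their batch for many of the genes. In batch 1, OF replicate 1 was the lowest of the 4 arrays for 32 of the 69 genes, against 29.8% of all named genes, and control replicate 1 was the highest for 31, against 25.1%. In batch 2, OF replicate 2 was the highest for 31, against 30.9% of all named genes. This is the OF fish with low vitellogenin signals. Among these genes were *p4ha3*, *col6a1*, *col6a3*, *col1a1b* and *col18a1*.

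The genes that work beside these enzymes did not share a direction over both batches. Of 30 measured partners of collagen folding, secretion and trimming, 15 had a higher and 15 a lower mean, with 1 higher and 2 lower at an unadjusted p under 0.05, against 2.06% and 2.42% of all clusters. In batch 2, 0 of the 30 were higher and 6 lower at that p, against 4.73% and 5.01% of clusters, and 4 were lower at the methods' limits, against 3.12%. In batch 1, 1 was higher and 2 were lower at that p, against 4.49% and 6.13%. The collagen galactosyltransferase *colgalt1b*, which glycosylates hydroxylysine, gave 3.89 and 4.01 in the controls and 3.84 and 3.10 in the OF fish of batch 1. Batch 2 gave 7.54 and 7.25 in the controls, and 4.87 and 4.28 in the OF fish. As for *p4ha2*, the change was far larger in batch 2 (−2.82, SE 0.29) than in batch 1 (−0.47, SE 0.31, not passed), a difference of −2.35 (adjusted p = 0.139). For both genes the controls of batch 1 lay near 4 or below, and whether this limited the fall there was not tested. The trimming enhancer *pcolceb* passed with a change of −0.57 (SE 0.22) and *p3h4* of the hydroxylase complex with 0.46 (SE 0.15), and *mia3*, which loads collagen for export, did not (−0.63, SE 0.27). *p4hb*, the beta subunit that the prolyl 4-hydroxylases share, gave 10.94 to 11.08 in batch 1 and 11.74 to 12.02 in batch 2, with a change of 0.02 (SE 0.12).

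Other matrix genes were counted by the direction of their means, where 51.4% of all named genes were lower in batch 1 and 47.5% in batch 2. Of 30 matrix glycoproteins and proteoglycans, 19 had a lower mean with OF in batch 1 and 21 a higher one in batch 2, and over both batches 1 passed, *fbln2* of elastic fibers (0.43, SE 0.14). Of 15 laminins and other basement membrane partners, 9 were lower in batch 1 and 10 higher in batch 2 by their means, and 0 passed over both (smallest p *nid2a*, a nidogen, 0.63, SE 0.28). Of 18 proteases and inhibitors of matrix breakdown, 0 passed over both, and the smallest p were those of *mmp11a* (−0.38, SE 0.19) and *mmp14b* (0.71, SE 0.36). Of 26 genes of TGF-beta signaling, a main driver of collagen expression, 18 had a lower mean in batch 1 and 17 a higher one in batch 2. At an unadjusted p under 0.05 in limma, 5 of the 26 were lower in batch 1 and 4 higher in batch 2, against 6.13% and 4.73% of all clusters. Over both batches 1 of them passed, the corepressor *tgif1* (0.69, SE 0.22). Of all clusters, 2.06% were higher and 2.42% lower over both batches at that p. None of the genes of these lists passed an adjusted p under 0.05 within a batch, over both batches or for the difference between them.

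Lists of cell type markers differed in how they moved, beside 51.4% of all named genes lower in batch 1 and 47.5% in batch 2. Over 20 markers of stellate and mesenchymal cells, which include *loxl1*, the mean log2 signal was 3.31 and 3.50 in the controls and 2.99 and 3.29 in the OF fish of batch 1, and 4.14 and 3.96 in the controls and 4.09 and 4.56 in the OF fish of batch 2. Of the 20 genes, 6 were near the floor, 14 had a lower mean in batch 1 and 15 a higher one in batch 2. Single markers went both ways, since *cygb1*, a globin of stellate cells, passed as higher in both batches (1.99, SE 0.28, and 1.56, SE 0.37), and the smooth muscle gene *tagln* passed as lower over both (−0.75, SE 0.30).

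Of the 18 hepatocyte markers, 16 had a lower mean with OF in batch 1 and 17 a higher one in batch 2 (medians −0.34 and 0.27). Their mean was 11.45 and 11.38 in the controls and 10.95 and 11.19 in the OF fish of batch 1, and 11.35 and 11.79 in the controls and 11.43 and 12.55 in the OF fish of batch 2. Over 17 endothelial markers the mean was 3.88 and 4.03 in the controls and 3.46 and 3.88 in the OF fish of batch 1, and 4.79 and 4.27 in the controls and 4.64 and 5.10 in the OF fish of batch 2. Of the 17, 4 were near the floor. Over 9 erythrocyte markers the mean was 5.64 and 4.78 in the controls and 3.43 and 2.87 in the OF fish of batch 1, and 4.34 and 3.94 in the controls and 4.66 and 6.01 in the OF fish of batch 2. All 9 were lower by their means in batch 1 and higher in batch 2. Over 14 markers of exocrine pancreas the mean was 5.47 and 7.35 in the controls and 2.50 and 5.78 in the OF fish of batch 1, and 6.56 to 6.95 in batch 2. By their means, all 14 pancreas markers were lower in batch 1 and 10 were lower in batch 2. Of 12 biliary markers, 7 had a lower mean in batch 1, and batch 2 split them 6 to 6. Of 14 macrophage markers 8 were lower in batch 1 and 9 higher in batch 2, and of 11 intestine markers 7 and 8. Of 16 muscle markers 15 were near the floor. Of 15 skin, bone and cartilage markers 10 were near it, and 5 had a lower mean in batch 1 and 7 a higher one in batch 2. The part of these cells in the values of the collagens was not tested.

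**Figure D5:**
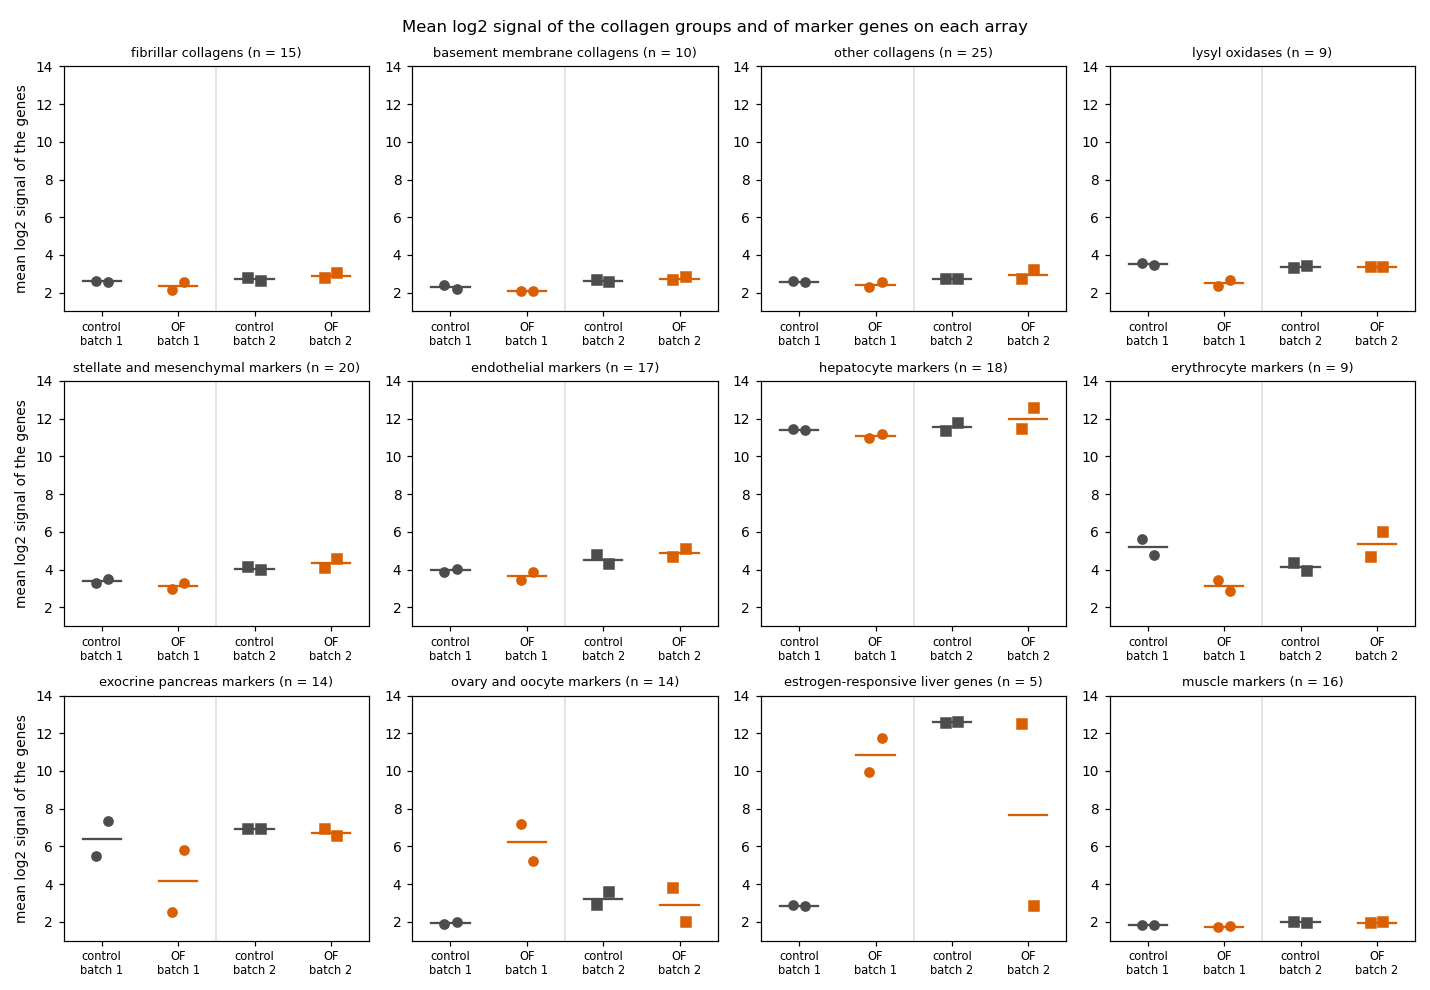
Mean log2 signal (y axis) over the genes of 3 groups of collagens, the lysyl oxidases and 8 marker lists in the 4 groups of fish; each point is 1 array and short lines are group means, with the number of genes in each title. The lysyl oxidases range from 2.34 to 3.60, whereas the estrogen-responsive genes range from 2.84 to 12.62.

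For 9 of the genes several clusters were measured. The 3 clusters of *col6a3* all had a lower mean with OF in batch 1 (−0.91 to −0.74) and a higher one in batch 2 (0.84 to 1.43). The change of 1.43 was that of a dimmer cluster (2.69-fold, SE 0.49, adjusted p = 0.47 in limma) and was past the methods' limits. A dimmer cluster of *col7a1l* passed with a change of 0.39 over both batches (SE 0.16), against 0.03 for the brightest. The other cluster of *plod3* changed by 0.32 over both batches (SE 0.24), against −0.16 (SE 0.50), and neither passed. Outside the collagens, *col4a3bpa* gave 6.25 and 6.78 in the controls and 6.53 and 6.03 in the OF fish of batch 1, and 6.26 and 5.84 in the controls and 5.90 and 8.42 in the OF fish of batch 2 (0.44, SE 0.57). Leaving it out gives 68 genes and the same calls within each batch and over both, with no array left out. The genes given above as higher in batch 2 without OF replicate 1 include *col4a3bpa* (change 2.37).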

How the data were processed

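Liver RNA of 8 zebrafish was hybridised to ZebGene 1.1 ST arrays read on the GeneTitan system. Per the methods, the authors used the Transcriptome Analysis Console, correcting for guanine and cytosine content and applying a signal space transformation, and the submitters' processing notes name the same tool. They deposited a log2 signal for each of 75212 clusters, and worksheets with the linear intensity and log2 averages of each group, which matched the value table apart from 3 clusters. Worksheet columns that hold fold changes and p-values were not used. Positions are not printed because no source used here states the genome build.

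Only the 59384 clusters listed in the worksheets were considered, and 84 of them, controls or clusters without a chromosome, were left out. The deposited log2 signals of the other 59300 entered limma 3.58.1 (lmFit, eBayes, R 4.3.3). Fits were made within each batch, for the 8 arrays together with a term for batch, and with a term for the batch by OF interaction. P-values were adjusted by the Benjamini-Hochberg method over all 59300. The methods' limits within a batch, over 2-fold and p under 0.05 by an eBayes analysis of variance, served for the calls. The fitting steps were also run on simulated signals with known changes, independent noise and no difference between batches. That run checks the steps, and not the precision with 2 fish per group. Python 3.11.15 with pandas 2.3.3 and matplotlib 3.10.9 made the tables and figures. Replicates are separate fish, and with 2 per group in each batch their number limits the precision.

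The genes and lists were chosen with earlier results of these data known. Gene symbols were those of the authors' files, and 54 of the 69 genes were matched to a RefSeq name (GRCz12tu). A cluster with several symbols was left out. The genes described singly are those with a mean log2 signal of at least 5, *loxl2a* and *loxl2b*, the 6 in each direction with the smallest p over both batches, those past the methods' limits in both batches, the 5 with the widest range, and up to 4 more in each group by smallest p. Genes past a limit, or of the same collagen as a gene so chosen, were also named after their values were seen. Of each other list, up to 4 genes with the smallest p are named, and *p4hb* was added after its values were seen. Alternatives were quantile normalisation, a filter on dim clusters, another cluster per gene, main clusters alone, each array left out, the replicate number as a block, no limit on fold, and other floors.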

Additional observations from a re-analysis of the deposited data

Results flagged for a closer look

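For 10 genes both OF arrays lay below both controls in batch 1 and above both in batch 2, so that the change turned between the batches. They were picked for this turn, so that the differences are given as values with no test. For *loxl2b* the change in batch 2 exceeded that in batch 1 by 2.36, and for *col1a2* by 1.90. The difference was 1.68 for *col6a3*, 1.66 for *col18a1* and 1.18 for *col4a1*. It was 0.89 for *col9a3*, 0.75 for *col28a1a*, 0.73 for *col16a1*, 0.46 for *col7a1l* and 0.28 for *col11a1b*. These genes and *col1a2* were near the floor, with all signals under 4. For *col11a1b* the nearest arrays of the groups were 2.45 and 2.42 in batch 1, and 2.267 and 2.270 in batch 2. The dimmer clusters of *col7a1l* had both OF arrays above both controls in batch 1 (changes 0.46 and 0.22). Of all named genes, 7.59% turned in the same way.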

How the results depend on the processing

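At the methods' limits, 4 genes were lower in batch 1, and 10 without the limit on fold, against 6.13% of all clusters. In batch 2, 1 gene was higher and 1 lower. With only clusters of a mean over 3, the count higher in batch 2 was 0, against 5.63% of these clusters. That filter took out the gene called, *loxl2b* (mean 2.99), before the test, so the 0 is no check of its call. The count was 2 with the cluster of largest variance, against 2.55% of all clusters. Without the limit on fold 4 were higher and 2 lower, against 4.73% and 5.01% of all clusters. Over both batches, 0 were higher at an unadjusted p under 0.05, but 1 was with quantile normalisation and 1 with the cluster of largest variance. The shares of all clusters were 1.94% with quantile normalisation and 2.06% without it. With the replicate number as a block, 0 were higher and 2 lower in batch 2, against 2.83% and 3.22% of all clusters. Over both batches 2 were then higher and 2 lower, against 1.74% and 2.02%. A fish belongs to 1 group, and the labels do not say whether the numbers pair fish in another way. Same-numbered arrays deviated together at r = 0.113 in batch 1 and −0.0727 in batch 2. The change in batch 2 was above that in batch 1 for 11 genes, but for 4 with only clusters of a mean over 3, against 11.8% of these clusters. That filter took out *col1a2* (mean 2.96) before the test, as well as *loxl2b*.

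With each array left out in turn, the counts were 0 to 2 higher and 4 to 9 lower in batch 1, 1 to 8 higher and 1 to 3 lower in batch 2, and 0 to 3 higher and 3 to 5 lower over both batches. The shares of all clusters moved as well. In batch 1 they ran from 1.87% to 7.49% higher and from 3.17% to 5.1% lower. Those of batch 2 ran from 2.36% to 5.9% higher and from 3.47% to 4.03% lower. Over both batches they ran from 1.4% to 3.24% higher and from 1.72% to 3.39% lower. A fit within a batch rests on 1 fish in 1 group when an array of it is left out. Of 21 named genes, 16 kept the direction of their change over both batches in every setting. That of *plod3* was 0.32 with its cluster of largest variance and ran from −0.48 to 0.23 with an array left out, that of *col13a1* from −0.17 to 0.10, of *loxl2b* from −0.16 to 0.60, of *p4ha3* from −0.26 to 2.91 and of *col4a3bpa* from −0.20 to 0.81. In no setting did any of the 69 genes pass an adjusted p under 0.05 over both batches or for the difference between them, and within a batch *loxl2a* alone did so (batch 1, only clusters of a mean over 3, adjusted p = 0.0497). Over all clusters, the counts at an adjusted p under 0.05 in batch 1 were 20 higher and 2 lower with quantile normalisation, and 502 and 46 without OF replicate 2 of that batch, against 0. The count near the floor was 33 at a floor of 3 and 53 at 5.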
